A study of Mus musculus with 59 samples.

Results

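Selenium-dependent and selenium-binding proteins were followed in mouse liver through 9 genes: the glutathione peroxidases Gpx1, Gpx3 and Gpx4, the deiodinase Dio1, the thioredoxin reductases Txnrd1 and Txnrd2, the selenophosphate synthetase Sephs2, and the selenium-binding proteins Selenbp1 and Selenbp2. A gene was measured where at least 1 probe set of the array carries its symbol alone in the platform annotation, and of several probe sets the brightest, averaged over the 59 arrays, represents it. By this rule 8 of the 9 genes were measured, with 17 probe sets, among 18193 genes in all. Selenbp2 has no probe set of its own. The probe set that represents Selenbp1 was designed on an accession that RefSeq gives to Selenbp2, while its second probe set was designed on an accession of Selenbp1. Both genes lie on chromosome 3 and are close copies, so signal of the first probe set cannot be assigned to either, and it is called Selenbp1 below by its annotation.

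Selenoproteins carry selenium as selenocysteine, which is inserted at a UGA codon with the help of a hairpin in the messenger, and Sephs2 makes the activated selenium donor for its synthesis. The glutathione peroxidases reduce peroxides with glutathione (Gpx1 in the cytosol, Gpx3 as a secreted plasma enzyme, Gpx4 on membrane lipids), the thioredoxin reductases keep thioredoxin reduced in the cytosol (Txnrd1) and in mitochondria (Txnrd2), and Dio1 converts the thyroid hormone thyroxine to its active form in liver. Selenbp1 and Selenbp2 bind selenium without holding selenocysteine. The liver messenger of Gpx1 is known as one that depends strongly on selenium supply. No source used here gives the selenium content of either diet.

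The series holds 59 arrays of whole liver RNA, 1 array per sample, from male C57BL/6 mice that were 6 weeks old and had 2 weeks to get used to their diet before treatment. In the first experiment, mice ate either AIN-76A, a diet of purified ingredients, or LRD-5001, a grain-based chow, and for 5 weeks received no added arsenite (controls), sodium arsenite at 10 or 100 ppb in drinking water, or at 10 ppb in food. In the second, mice on AIN-76A received an intraperitoneal injection of saline, of dexamethasone (a synthetic glucocorticoid) at 1 mg/kg, of sodium arsenite at 1 mg/kg, or of both, and livers were taken 8 h later. Each of the 12 groups held 5 arrays that the titles call biological replicates, except for 4 arrays at 100 ppb in water on AIN-76A. Values are log2 expression values, a difference of 1 is a factor of 2, and the standard error (SE) of a difference uses 1 spread per probe set over all arrays of its experiment. A gene is said to have risen or fallen where limma's p-value, adjusted over all 45037 probe sets of the comparison by the Benjamini-Hochberg method, is under 0.05.

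The albumin gene Alb lay between 13.65 and 13.75 in all 12 group means, so every group carried the defining hepatocyte marker. In each group the array with the lowest score on the leading principal component within groups (27.4% of the variance there) is said to lie apart. This names 1 array per group by definition, whether or not it is far from the others. In the saline group that array scored -14.2, and the next lowest scored -8.0. The score was oriented to rise with the upper quartile, which was lower on these arrays by 0.27 on average (mean difference -0.27). Markers of blood-derived cells also varied between arrays: the mean log2 value of 9 neutrophil markers ran from 2.30 to 5.98 over the injected mice, where saline replicate E was highest, from 2.35 to 3.95 over the AIN-76A arrays of the 5-week experiment, and from 2.31 to 2.80 over the LRD-5001 arrays. Of these 9 markers S100a8 and S100a9 had the highest means over all 59 arrays (3.70 and 4.27). The others had means from 2.10 (Cxcr2) to 2.98 (Csf3r), near the array medians of 2.42 to 2.59. In whole liver, fewer cells of a type and less RNA per cell cannot be told apart.

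The stretches upstream of 4 genes are shown, for the following reasons. Selenbp1 and Selenbp2 are close copies, and signal of the first Selenbp1 probe set cannot be assigned to either. Gpx1 and Gpx3 are peroxidases whose diet differences, averaged over the 4 exposures, had opposite signs. The Gpx3 call was lost in 25 of 39 fits that left out 1 array. Each stretch is the 250 bases before the start of the gene in RefSeq, build GRCm38.p6, plus strand, 5′ to 3′: chr3:94932833-94933082 for Selenbp1, chr3:94693323-94693572 for Selenbp2, chr9:108338830-108339079 for Gpx1 and chr11:54902604-54902853 for Gpx3. Capitals mark matches on either strand to any of 5 motifs. TGANNNNGC is the core of the antioxidant response element. AGAACA is part of the glucocorticoid response element, and TATAAA is the box that places the start of many messengers. GGGCGG is the letters that the factor Sp1 is known to bind, and GCGTG is the core of the xenobiotic response element.
Selenbp1: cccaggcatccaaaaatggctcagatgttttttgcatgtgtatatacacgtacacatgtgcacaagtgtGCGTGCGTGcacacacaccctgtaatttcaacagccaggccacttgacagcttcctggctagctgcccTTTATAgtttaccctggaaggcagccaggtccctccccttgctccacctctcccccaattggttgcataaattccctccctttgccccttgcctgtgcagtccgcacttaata
Selenbp2: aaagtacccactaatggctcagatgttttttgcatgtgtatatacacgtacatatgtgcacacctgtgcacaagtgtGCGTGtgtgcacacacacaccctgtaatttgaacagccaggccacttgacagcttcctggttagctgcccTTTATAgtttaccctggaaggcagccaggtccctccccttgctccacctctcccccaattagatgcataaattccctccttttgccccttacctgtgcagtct
Gpx1: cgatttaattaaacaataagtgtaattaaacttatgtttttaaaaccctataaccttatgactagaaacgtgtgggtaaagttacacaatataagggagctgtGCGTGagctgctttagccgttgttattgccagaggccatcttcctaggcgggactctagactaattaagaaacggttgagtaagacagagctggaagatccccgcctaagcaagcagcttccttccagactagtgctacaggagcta
Gpx3: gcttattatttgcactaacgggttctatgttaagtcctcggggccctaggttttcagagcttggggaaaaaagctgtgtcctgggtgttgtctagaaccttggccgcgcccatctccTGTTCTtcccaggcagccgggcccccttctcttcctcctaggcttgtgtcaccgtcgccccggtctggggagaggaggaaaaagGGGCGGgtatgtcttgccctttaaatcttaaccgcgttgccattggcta
The windows of Selenbp1 and Selenbp2 had the same base in 225 of 262 aligned columns (85.9%). Both held TATAAA on the minus strand and the GCGTG core, with 2 overlapping copies of the core in Selenbp1 and 1 in Selenbp2. The Gpx1 window held GCGTG alone, and the Gpx3 window held GGGCGG and, on the minus strand, AGAACA. These matches are common: GCGTG stood in 28.2% of 32851 mouse promoter windows of this length, GGGCGG in 32.7%, AGAACA in 16.1%, TATAAA in 12.4% and TGANNNNGC in 35.2%. A match is a description of the letters, not a shown binding site.

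The first comparison asks how the 2 diets differ. Averaged over the 4 exposures, Selenbp1, Gpx1 and Gpx4 were higher and Gpx3 was lower in mice on LRD-5001 than in mice on AIN-76A, so 4 of 8 genes changed, where 4.26% of all probe sets did (2.67% higher and 1.59% lower). Selenbp1 rose 1.98-fold (95% interval 1.62 to 2.41), Gpx1 1.27-fold (1.19 to 1.35) and Gpx4 1.15-fold (1.06 to 1.25), while Gpx3 was at 0.58 of its AIN-76A level (0.42 to 0.81). Dio1, Txnrd1, Txnrd2 and Sephs2 did not pass the test. The median difference of the 8 genes was 0.14, against -0.01 over all probe sets. The plot of levels by group shows the arrays behind these differences.

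**Figure D1:**
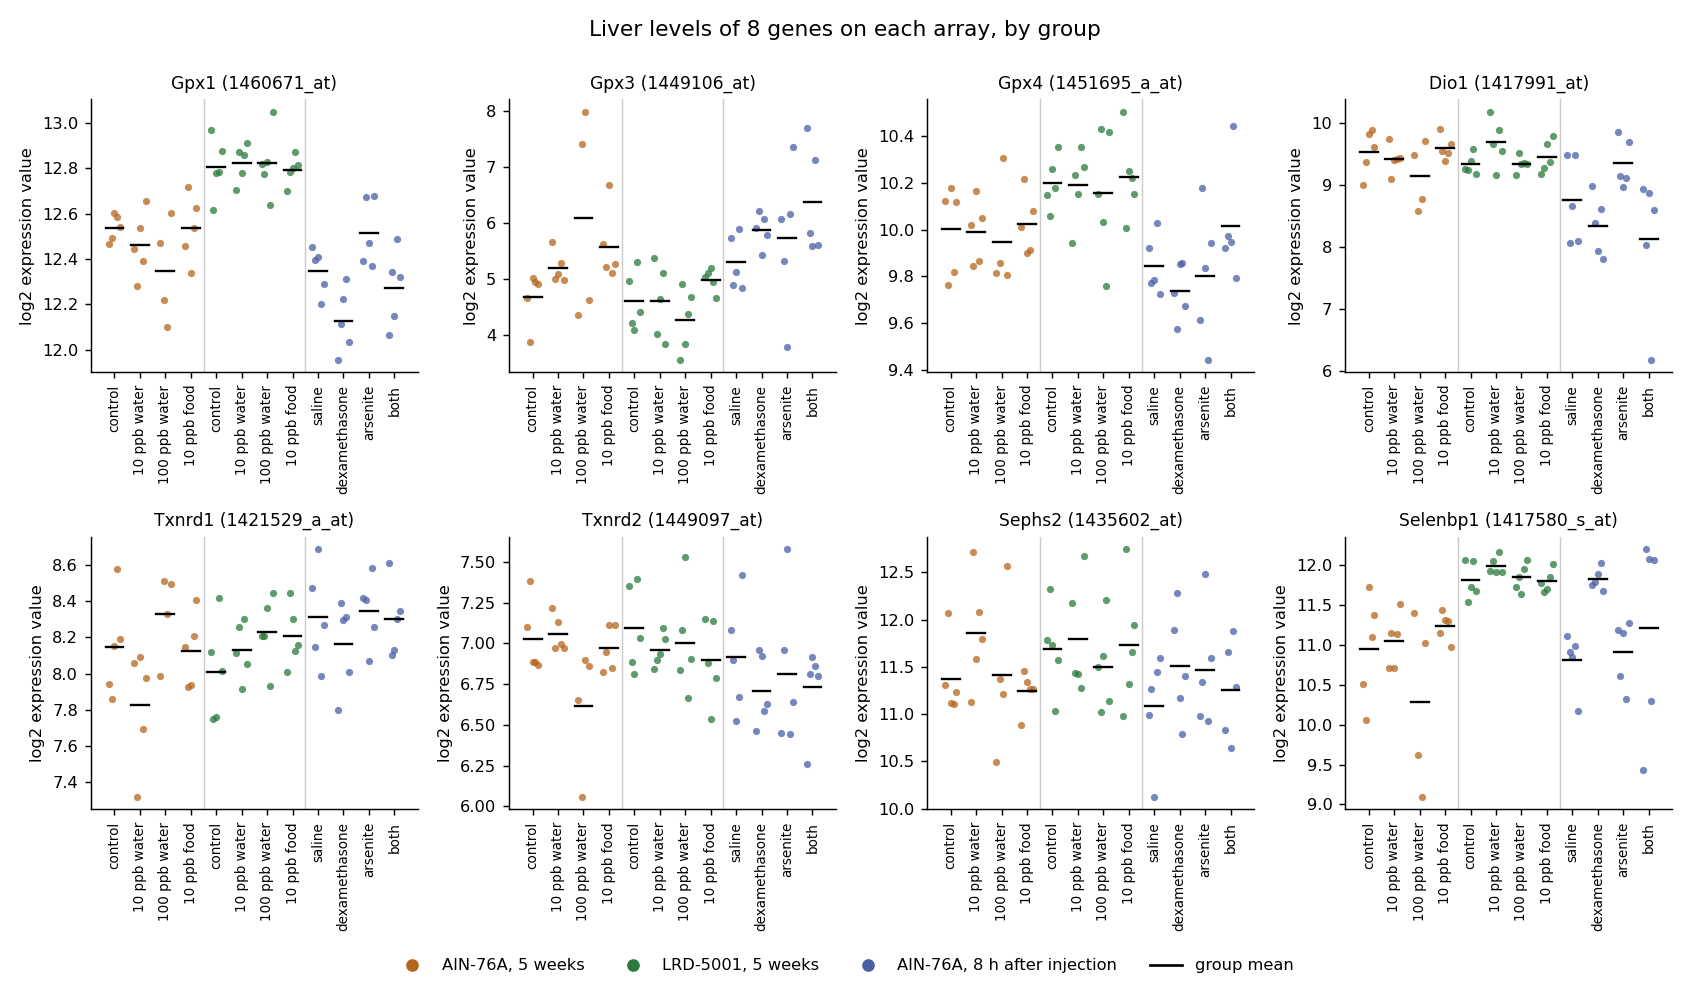
Log2 expression value (y axis) of 8 genes on each of 59 arrays, in 12 groups (x axis); points are arrays, black bars are group means, brown is AIN-76A and green LRD-5001 in the 5-week experiment, and blue is the injection experiment on AIN-76A. Gpx1 and Selenbp1 lie higher in the 4 green groups than in the 4 brown ones, and Gpx3 has high points at 100 ppb in water on AIN-76A (7.40 and 7.98).

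Gpx1, the most abundant cytosolic glutathione peroxidase, was higher on LRD-5001 at all 4 exposures. In controls, its log2 values were 12.62, 12.78, 12.78, 12.88 and 12.97 on LRD-5001 and 12.47, 12.50, 12.54, 12.59 and 12.60 on AIN-76A. With 10 ppb in water they were 12.71, 12.78, 12.86, 12.87 and 12.91 on LRD-5001 and 12.28, 12.39, 12.45, 12.54 and 12.66 on AIN-76A. At 100 ppb in water they were 12.64, 12.78, 12.82, 12.83 and 13.05 on LRD-5001 and 12.10, 12.22, 12.47 and 12.60 on AIN-76A. Every LRD-5001 array lay above every AIN-76A array in each of these 3 pairs of groups. Groups were apart in this way for 1.85% of all probe sets in controls, 1.76% at 10 ppb and 4.3% at 100 ppb in water. At 10 ppb in food the values were 12.70, 12.79, 12.80, 12.81 and 12.87 on LRD-5001 and 12.34, 12.46, 12.54, 12.63 and 12.72 on AIN-76A, where 1 AIN-76A array lay above the lowest LRD-5001 array. The averaged difference was 0.34 (SE 0.05, adjusted p = 2.03e-06), with a range of 0.32 to 0.36 when each of the 39 arrays was left out in turn. Within single exposures Gpx1 passed the test at 100 ppb in water (0.47, SE 0.09, adjusted p = 0.00405), but not in controls (0.27, SE 0.09, adjusted p = 0.267), at 10 ppb in water (0.36, SE 0.09, adjusted p = 0.0622) or at 10 ppb in food (0.26, SE 0.09, adjusted p = 0.523). The call at 100 ppb rests on AIN-76A replicates B and C: without both, a choice made after seeing the data, the difference was 0.28 (adjusted p = 0.178), and with only the groups compared in the fit the same difference had an adjusted p of 0.165. The value at 10 ppb in water lay close to the threshold, and Gpx1 passed there without AIN-76A replicate F (0.41, adjusted p = 0.0285) and in 5 of 11 other settings (adjusted p from 0.0213 to 0.222 over the 11).

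Gpx4, which protects membrane lipids, had small differences of like size at each exposure, between 0.20 and 0.21. On LRD-5001 its log2 values ran from 9.76 to 10.50 with a median of 10.20 over 20 arrays, and on AIN-76A from 9.76 to 10.31 with a median of 10.01 over 19 arrays. The ranges overlapped almost wholly, with 5 LRD-5001 arrays above every AIN-76A array and 1 below every one. The averaged difference was 0.20 (SE 0.06, adjusted p = 0.0424), the call was lost in 24 of 39 fits that left out 1 array (adjusted p from 0.0113 to 0.0741), and it was also lost without the arrays that lay apart (0.18, adjusted p = 0.121). Its second probe set gave 0.14 (adjusted p = 0.121).

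Gpx3, the secreted peroxidase, was lower on LRD-5001, and the size of this difference came mostly from 100 ppb in water. There its log2 values were 3.55, 3.84, 4.37, 4.67 and 4.91 on LRD-5001 and 4.35, 4.62, 7.40 and 7.98 on AIN-76A. The higher pair of AIN-76A arrays, replicates B and C, stood far above all others, and the lower pair lay within the LRD-5001 range. The difference was -1.82 (SE 0.48, adjusted p = 0.0358). Without replicates B and C, a choice made after seeing the data, it was -0.21 (adjusted p = 0.841), and the difference averaged over exposures moved from -0.77 (SE 0.23, adjusted p = 0.0454) to -0.37 (adjusted p = 0.239). Leaving out 1 array at a time, the difference at 100 ppb lost its call without AIN-76A replicate B (-1.38, adjusted p = 0.206) or C (-1.19, adjusted p = 0.191), and without LRD-5001 replicate A (-1.64, adjusted p = 0.11), D (-1.71, adjusted p = 0.0803) or E (-1.84, adjusted p = 0.056). It was also lost with all 59 arrays in 1 fit (adjusted p = 0.0565) and with only the groups compared (adjusted p = 0.341). The averaged call was lost in 25 of 39 such fits (adjusted p from 0.00444 to 0.0977).

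At the other exposures Gpx3 did not pass the test. In controls its log2 values were 4.09, 4.21, 4.41, 4.96 and 5.31 on LRD-5001 and 3.87, 4.65, 4.91, 4.95 and 5.01 on AIN-76A, and the groups overlapped fully (difference -0.08, SE 0.45). With 10 ppb in food they were 4.65, 4.94, 5.03, 5.09 and 5.19 on LRD-5001 and 5.11, 5.21, 5.26, 5.63 and 6.67 on AIN-76A (difference -0.59, SE 0.45), with 1 AIN-76A array below the highest LRD-5001 array. At 10 ppb in water the difference was -0.60 (SE 0.45).

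Selenbp1 had the widest rise among the 8 genes. In controls its log2 values were 11.54, 11.67, 11.73, 12.06 and 12.07 on LRD-5001 and 10.06, 10.51, 11.10, 11.38 and 11.72 on AIN-76A. With 10 ppb in water they were 11.91, 11.91, 11.93, 12.06 and 12.17 on LRD-5001 and 10.71, 10.72, 11.14, 11.15 and 11.51 on AIN-76A. The control groups overlapped by 1 AIN-76A array. At 10 ppb in water every LRD-5001 array lay above every AIN-76A array. In either direction, 1.76% of all probe sets were apart there. At 100 ppb in water the values were 11.64, 11.73, 11.86, 11.96 and 12.06 on LRD-5001 and 9.09, 9.62, 11.02 and 11.41 on AIN-76A. With 10 ppb in food they were 11.67, 11.70, 11.77, 11.85 and 12.02 on LRD-5001 and 10.98, 11.15, 11.31, 11.32 and 11.44 on AIN-76A. Both of these pairs of groups were apart, as were 4.3% and 1.43% of all probe sets. Over all exposures, 15 of 20 LRD-5001 arrays lay above every AIN-76A array, and 18 of 19 AIN-76A arrays lay below every LRD-5001 array.

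The averaged Selenbp1 difference was 0.98 (SE 0.14, adjusted p = 7.92e-06), between 0.88 and 1.08 when each array was left out in turn. It was largest at 100 ppb in water (1.56, SE 0.29, adjusted p = 0.00232). That value rests on AIN-76A replicates B and C, the same arrays that were high for Gpx3: without them it was 0.64 (adjusted p = 0.21), and with only the groups compared in the fit the adjusted p was 0.163, while the averaged difference was 0.75 (adjusted p = 7.68e-06). In controls the difference was 0.86 (SE 0.28, adjusted p = 0.235). It passed the test when those 2 arrays of another group no longer entered the spread, a choice made after seeing the data (adjusted p = 0.016). Leaving out 1 array at a time, it passed in 0 of 10 fits (adjusted p from 0.091 to 0.657). The 12 other settings count the fit without those arrays and the second probe set. It passed only in those 2 (adjusted p from 0.016 to 0.631 over the 12). At 10 ppb in water the difference was 0.95 (SE 0.28, adjusted p = 0.192). It passed in 2 of 12 such settings (adjusted p from 0.00934, without the same arrays, to 0.417). At 10 ppb in food it was 0.56 (SE 0.28, adjusted p = 1).

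The second Selenbp1 probe set moved the same way. Its averaged difference was 0.74 (SE 0.09, adjusted p = 2.71e-07), a 1.68-fold rise, and it also rose in controls (0.78, SE 0.17, adjusted p = 0.0202). All LRD-5001 arrays lay above all AIN-76A arrays of the same exposure at each of the 4 exposures, which held for 0.142% of all probe sets. In controls its log2 values were 10.49, 10.55, 10.56, 10.69 and 10.97 on LRD-5001 and 9.33, 9.85, 9.86, 9.96 and 10.35 on AIN-76A. Whether either probe set reads 1 copy or both was not tested.

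**Figure D2:**
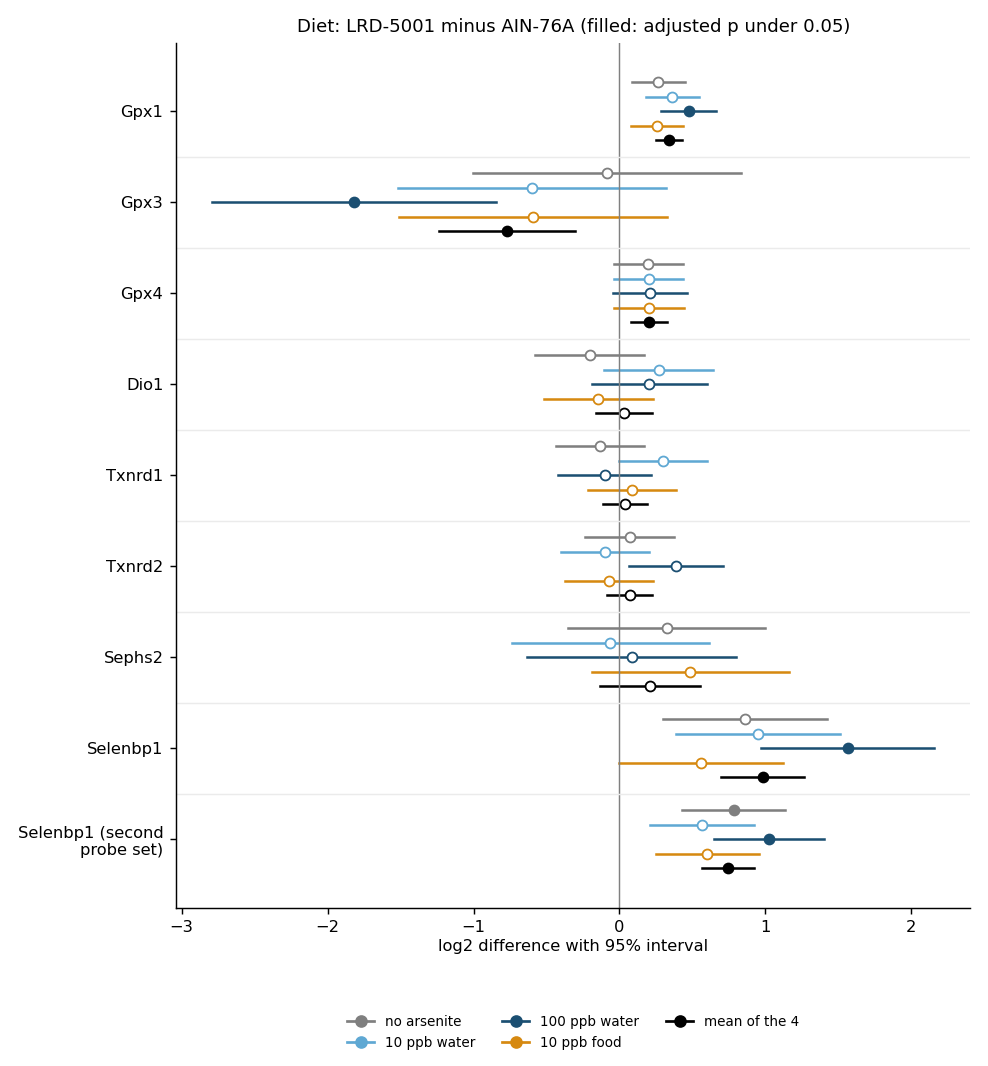
Log2 difference LRD-5001 minus AIN-76A (x axis) with its 95% interval for 8 genes and the second Selenbp1 probe set (y axis), at each of 4 exposures and as their mean (colours); filled points have an adjusted p under 0.05. The mean differences of Gpx1 (0.34), Gpx4 (0.20) and both Selenbp1 probe sets (0.98 and 0.74) lie to the right of 0, and that of Gpx3 (-0.77) to the left.

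The remaining selenoprotein genes had averaged diet differences that did not pass the test. For Dio1 the difference was 0.03 (95% interval -0.16 to 0.22), for Txnrd1 0.04 (-0.11 to 0.19) and for Txnrd2 0.07 (-0.08 to 0.23). These intervals leave room for changes of up to about 0.2 in log2 units. For Sephs2 it was 0.21 (-0.13 to 0.55), a wide interval. Sephs2 varied most with the arrays that lay apart, which were higher than the rest of their group in 12 of 12 groups (mean difference 0.83, SD 0.48), and Txnrd2 was higher on them in 10 of 12 (0.33, SD 0.31). Among further probe sets, 1 of Sephs2 had the opposite sign (-0.23, SE 0.42), and none of Sephs2, Txnrd1 or Txnrd2 passed the test.

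When diet was tested within single exposures, no gene passed in controls, where 0.568% of probe sets did. There 2 of 8 genes had an unadjusted p under 0.05 in limma, as had 7.21% of all probe sets. No gene passed at 10 ppb in water (0.344% of probe sets) or at 10 ppb in food (0.295%). Unadjusted, 3 of 8 genes and 7.46% of all probe sets passed at 10 ppb in water, and 2 of 8 and 4.93% in food. At 100 ppb in water Selenbp1 and Gpx1 rose and Gpx3 fell, against 2.05% of probe sets, and all 3 calls were lost without AIN-76A replicates B and C. The interactions of diet with each exposure called none of the 8 genes and 0 of all probe sets in limma. At an unadjusted p under 0.05 stood 1 of 8 genes for 10 ppb in water, 1 of 8 for 100 ppb in water (Gpx3) and 0 of 8 for food, so a different diet effect at 100 ppb was not shown.

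The other genes of selenium metabolism were counted from fixed lists, beside a median of -0.01 over all probe sets. Of all probe sets 4.26% passed the averaged diet test, and 14.3% had an unadjusted p under 0.05 in limma. A count of 0 in lists this short is near that share. Of 17 other selenoprotein genes 16 were measured, and 0 passed the averaged diet test in limma (3 at an unadjusted p under 0.05, median difference 0.07). Selenop, the selenium carrier that liver secretes into plasma, lay between 12.62 and 12.75 in all group means. Of 12 genes for selenocysteine synthesis, insertion and selenium delivery 11 were measured, and 0 passed (4 unadjusted, median 0.00). Genes that supply glutathione, the substrate of the peroxidases, rose in 3 of 7 cases: Cth, which makes cysteine, by 1.06 (SE 0.10, adjusted p = 1.51e-09), Gss by 0.37 (SE 0.10, adjusted p = 0.0178) and Gclm, a subunit of the rate-limiting ligase, by 0.33 (SE 0.06, adjusted p = 0.000599), with a median of 0.29.

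Of 13 measured genes of the selenium-free peroxidases and the thioredoxin system, 4 rose, 1 fell and 8 did not pass (median 0.11). Over all probe sets 2.67% rose and 1.59% fell. Gpx7 rose by 0.51 (SE 0.07, adjusted p = 1.12e-05) and Gpx6 by 0.55 (SE 0.12, adjusted p = 0.00322), both from dim probe sets. Their means over all arrays were 2.88 and 2.63, near the array medians of 2.42 to 2.59. Txnip, which binds and inhibits thioredoxin, rose by 0.54 (SE 0.15, adjusted p = 0.0233), and Prdx4, a peroxiredoxin of the endoplasmic reticulum, fell by 0.16 (difference -0.16, SE 0.04, adjusted p = 0.0322). In the list for thyroid hormone handling and response, to which Dio1 belongs by function, the thyroid-responsive malic enzyme gene Me1 fell (-1.56, SE 0.20, adjusted p = 8.16e-07), as did the thyroxine-binding globulin gene Serpina7 (-1.20, SE 0.31, adjusted p = 0.0167). The hormone transporter gene Slco1b2 rose (0.32, SE 0.07, adjusted p = 0.00383) and 9 of 12 did not pass (median 0.03).

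Markers of other cells moved with the diets as well, where 4.26% of all probe sets passed the averaged diet test. An unadjusted p under 0.05 in limma was found for 14.3%. A single call in lists this short is near the share that passed. Of 11 Kupffer cell and macrophage markers 4 fell (Clec4f, Csf1r, C1qa and Cd5l), and their mean log2 value ran from 6.36 to 7.48 on LRD-5001 and from 6.58 to 7.63 on AIN-76A. Of 9 neutrophil markers S100a8 and S100a9 fell, and of 10 markers of pericentral hepatocytes 4 rose (Oat, Cyp1a2, Cyp2e1 and Rhbg). Among 6 periportal markers Hal and Cyp2f2 rose, among 9 hepatocyte markers Hnf4a fell, and among 5 red cell markers Tfrc rose. None of 8 endothelial, 10 stellate, 5 bile duct or 4 fat cell markers passed in limma (0, 1, 2 and 0 at an unadjusted p under 0.05). Their part in the differences of Gpx3, Selenbp1 and Gpx1 was not tested.

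The next comparisons ask whether 5 weeks of arsenite changed these genes on either diet. None of the 8 genes passed in any of the 6 comparisons with the control group of the same diet, which shares its arrays among the 3 exposures, and the share of all probe sets that passed was 0.00888% at 100 ppb in water on AIN-76A and 0% in the other 5. On LRD-5001 all 24 differences were under 0.5 in size, from -0.32 to 0.39, and 0 had an unadjusted p under 0.05 in limma. On AIN-76A 20 of 24 were under 0.5, and 5 had an unadjusted p under 0.05, 4 of them at 100 ppb in water, where 3996 of 45037 probe sets did. The plot of treatment differences shows the wider intervals of Gpx3, Sephs2 and Selenbp1.

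**Figure D3:**
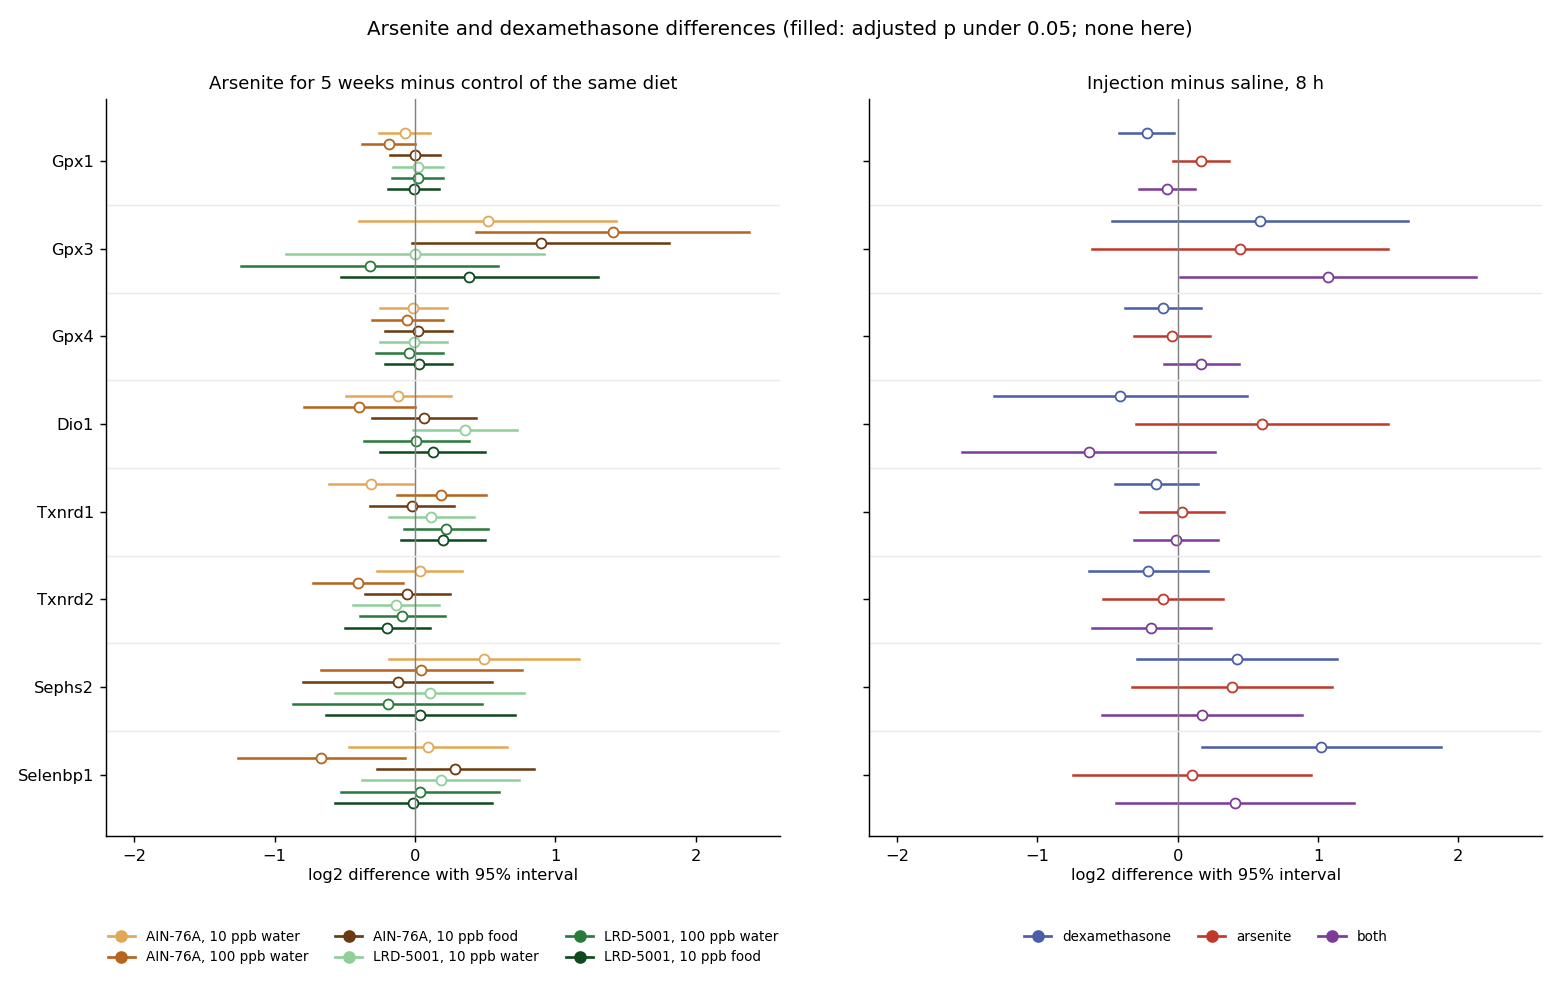
Log2 difference (x axis) with its 95% interval for 8 genes (y axis): on the left, arsenite for 5 weeks minus the control of the same diet, and on the right, injection minus saline at 8 h. All points are open, since none had an adjusted p under 0.05; Gpx3 reaches 1.41 at 100 ppb in water on AIN-76A and Selenbp1 1.02 after dexamethasone.

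At 100 ppb in water on AIN-76A, Gpx3 differed from the control by 1.41 (SE 0.48, adjusted p = 0.311) and Selenbp1 by -0.67 (SE 0.29, adjusted p = 0.481). The 4 exposed arrays fell into pairs for both genes. Replicates B and C had Gpx3 at 7.40 and 7.98, Selenbp1 at 9.62 and 9.09, Gpx1 at 12.22 and 12.10, and Dio1 at 8.58 and 8.77, in log2 values. Replicates A and D had Gpx3 at 4.35 and 4.62, Selenbp1 at 11.41 and 11.02, Gpx1 at 12.47 and 12.60, and Dio1 at 9.48 and 9.70. The neutrophil markers had mean log2 values of 3.95 and 3.81 on replicates B and C and of 2.62 and 3.30 on A and D. Their brightest members were also high on D: S100a8 was at 7.42 on B, 7.67 on C, 2.15 on A and 6.35 on D. S100a9 was at 8.11 on B, 7.82 on C, 3.19 on A and 6.34 on D. Kupffer cell markers had mean log2 values of 6.78 and 6.67 on B and C and of 6.63 and 7.02 on A and D, where D is the array of this group that lay apart. The part of either list in these values was not tested. Without B and C the differences from control turned to -0.20 for Gpx3 (adjusted p = 0.888) and 0.26 for Selenbp1 (adjusted p = 0.728). Without replicate A alone, Gpx3 passed the test (1.99, adjusted p = 0.0199).

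At 10 ppb in food on AIN-76A, all 5 Gpx3 arrays (5.11 to 6.67) lay above all 5 control arrays (3.87 to 5.01), with a difference of 0.90 (SE 0.45, adjusted p = 1). Groups were apart in either direction for 0.484% of all probe sets in that comparison. The mean log2 value of the 4 fat cell markers reached 6.16 on 1 array of this food group, against a group median of 3.01. In AIN-76A controls its highest value was 3.09. The part of these markers in the Gpx3 values was not tested. Between 100 and 10 ppb in water on AIN-76A no gene passed, where 0.713% of all probe sets did. The Txnrd2 arrays at 100 ppb (6.06, 6.65, 6.86 and 6.90) lay below those at 10 ppb (6.97, 6.97, 6.999, 7.13 and 7.22), a difference of -0.44 (SE 0.16, adjusted p = 0.235) in a comparison where 1.88% of probe sets were apart. Txnrd1 differed by 0.50 (SE 0.16, adjusted p = 0.142) there, by 0.62 without AIN-76A replicate A at 100 ppb (adjusted p = 0.0309), and by -0.04 on another, dimmer probe set (adjusted p = 0.989).

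The injection experiment compares saline with dexamethasone, arsenite and both at 8 h. None of the 8 genes passed against saline after dexamethasone (1.74% of probe sets passed; 2 of 8 genes at an unadjusted p under 0.05 in limma), after arsenite (0%; 0 of 8) or after both (0.926%; 1 of 8). None passed when both was compared with dexamethasone alone (0%; 1 of 8) or with arsenite alone (0.881%; 2 of 8). In the order of these comparisons, 11.2%, 3.14%, 9.78%, 3.87% and 10.2% of all probe sets had an unadjusted p under 0.05 in limma. The 3 comparisons with saline share its 5 arrays.

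Selenbp1 had log2 values of 11.68, 11.76, 11.80, 11.90 and 12.03 after dexamethasone and of 10.17, 10.85, 10.92, 10.99 and 11.11 after saline. The groups were apart, as were 3.81% of all probe sets, with a difference of 1.02 (SE 0.41, adjusted p = 0.299). After arsenite alone the values were 10.33, 10.61, 11.15, 11.19 and 11.27, which overlapped those after saline. After both they were 9.43, 10.30, 12.07, 12.08 and 12.21, so that 3 arrays lay above and replicates A and E below the dexamethasone range. These 2 arrays widened the spread of the whole experiment, and without them, a choice made after seeing the data, the same dexamethasone difference had an adjusted p of 0.00346. With only the groups compared in the fit it was 0.00575. The second probe set gave a difference of 0.56 after dexamethasone (SE 0.29, adjusted p = 0.502), and its groups overlapped. Saline replicate E, which had the highest neutrophil markers, had Selenbp1 at 10.99, and without it the difference was 1.07. None of the 11 Kupffer cell or 9 neutrophil markers passed after dexamethasone (4 and 2 at an unadjusted p under 0.05 in limma), with median differences of -0.77 and -0.71, and their part was not tested.

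The arrays A and E of the group given both also had high Gpx3. Gpx3 had log2 values of 5.59, 5.61, 5.82, 7.12 and 7.70 after both and of 4.83, 4.90, 5.12, 5.72 and 5.90 after saline, a difference of 1.07 (SE 0.50, adjusted p = 0.499) with overlapping groups. Without arrays A and E it was 0.38 (adjusted p = 0.853). The neutrophil markers had mean log2 values of 4.21 on array A and 2.58 on array E, against 2.33 to 2.76 on the other 3 arrays. Kupffer cell markers were higher on both, at 7.23 on array A and 7.31 on array E, against 5.65, 6.40 and 6.76 on the others. Array E is also the array of this group that lay apart. The part of these markers and of that array was not tested.

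**Figure D4:**
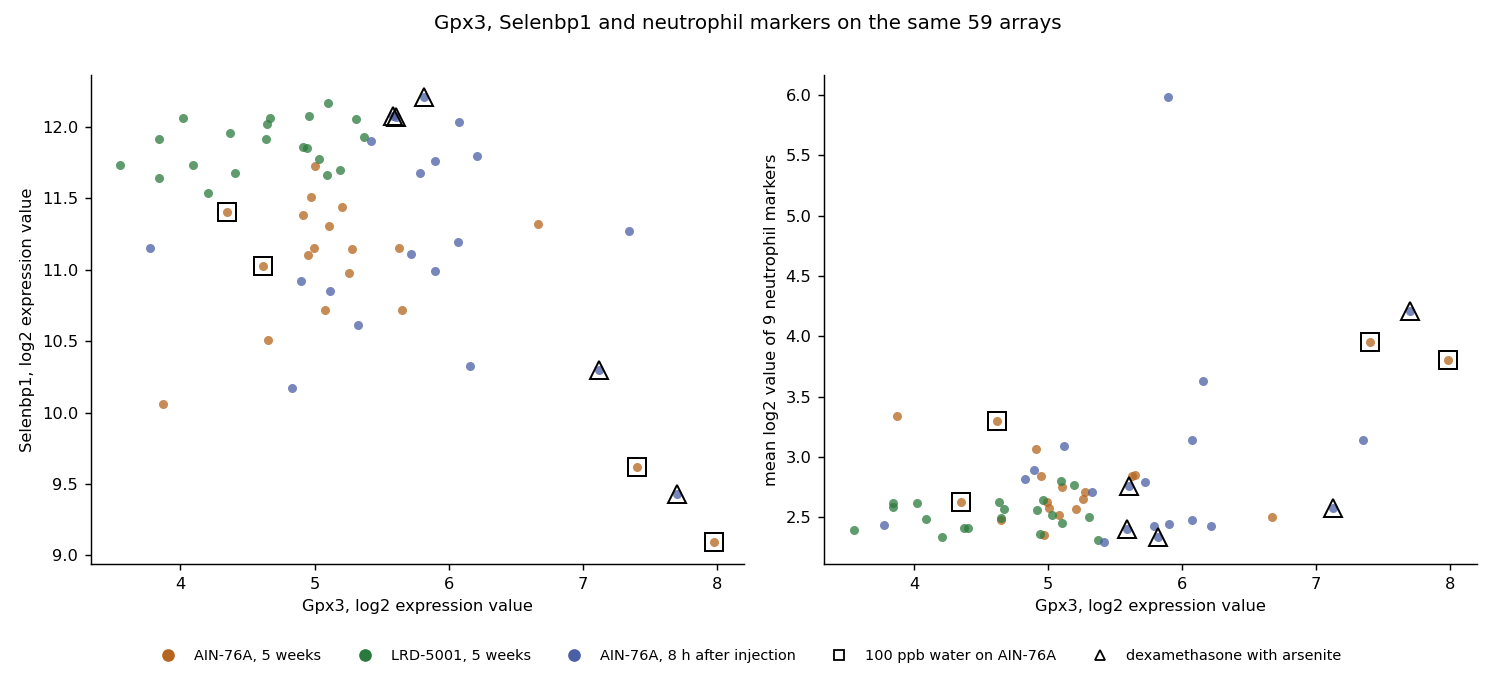
Log2 value of Selenbp1 (left) and mean log2 value of 9 neutrophil markers (right) against the log2 value of Gpx3 (x axis) on 59 arrays; squares mark 100 ppb in water on AIN-76A and triangles dexamethasone with arsenite. Of the 5 arrays with Gpx3 above 7, 4 are among the 6 lowest for Selenbp1. On those 5 arrays the neutrophil markers rank 2, 3, 4, 9 and 32 from the highest of 59. The array with the highest neutrophil markers (5.98) has Gpx3 at 5.90.

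Over all 59 arrays, 5 had a Gpx3 value above 7, and the next lower value was 6.67. On 4 of these arrays Selenbp1 stood among the 6 lowest of the series: AIN-76A at 100 ppb in water replicates C and B, and dexamethasone with arsenite replicates A and E. The remaining array, arsenite replicate F, had Gpx3 at 7.35 and Selenbp1 at 11.27. Its neutrophil markers had a mean log2 value of 3.14, rank 9 from the highest of the 59 arrays. The level of 7 was chosen after the values were seen, so this is a description of single arrays with no test.

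Dio1 had its lowest group means in the injection experiment. After both agents its log2 values were 6.17, 8.02, 8.58, 8.86 and 8.93, and after arsenite alone 8.97, 9.12, 9.14, 9.68 and 9.85. All arrays of the first group lay below all of the second, which held in either direction for 2.01% of probe sets, with a difference of -1.24 (SE 0.43, adjusted p = 0.265). After saline the values ran from 8.05 to 9.49 with a mean of 8.75, and overlapped those of either group. Both minus saline was -0.63. Without replicate E of the group given both, the array at 6.17, the difference from arsenite alone was -0.75 (adjusted p = 0.378). That array is the one of its group that lay apart, and Dio1 was lower on such arrays in 10 of 12 groups (mean difference -0.36, SD 0.75), whose part was not tested. Gpx1 after dexamethasone had log2 values of 11.96, 12.03, 12.12, 12.23 and 12.31, against 12.20, 12.29, 12.40, 12.41 and 12.45 after saline, with overlapping groups and a difference of -0.22 (SE 0.09, adjusted p = 0.363). For Gpx4, Txnrd1, Txnrd2 and Sephs2 the differences from saline lay between -0.21 and 0.42.

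Outside the 8 genes, Msrb1, a selenoprotein that repairs oxidised methionine, was the 1 of 16 other selenoprotein genes that changed after an injection, and it fell after dexamethasone (-0.96, SE 0.16, adjusted p = 0.00183) and after both (-0.86, SE 0.16, adjusted p = 0.00761). Of 11 genes for selenocysteine synthesis and delivery, Ncl, which codes for the RNA-binding nucleolin, rose after dexamethasone (0.61, SE 0.15, adjusted p = 0.049). Of all probe sets 1.74% passed after dexamethasone and 0.926% after both, so 1 call in a list of this length is near those shares. Both subunits of the ligase that starts glutathione synthesis fell after dexamethasone, Gclc by 1.74 (difference -1.74, SE 0.27, adjusted p = 0.00119) and Gclm by 0.64 (difference -0.64, SE 0.16, adjusted p = 0.0461), among 7 genes of glutathione supply. They also fell after both agents, Gclc with a difference of -1.62 (SE 0.27, adjusted p = 0.00385) and Gclm of -0.69 (SE 0.16, adjusted p = 0.043). In the thioredoxin list Txnip rose after dexamethasone by 2.31 (SE 0.32, adjusted p = 0.000507) and Txn1, thioredoxin itself, fell (-0.38, SE 0.09, adjusted p = 0.0281), while 11 of 13 did not pass. Txnip also rose after both agents (1.37, SE 0.32, adjusted p = 0.0425).

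Across the 12 groups, mean levels spanned 2.10 log2 units for Gpx3, from 4.27 at 100 ppb in water on LRD-5001 to 6.37 after dexamethasone with arsenite. Selenbp1 spanned 1.71, from 10.29 at 100 ppb in water on AIN-76A to 11.996 at 10 ppb in water on LRD-5001, and Dio1 1.57, from 8.11 after both agents to 9.68 at 10 ppb in water on LRD-5001. The other 5 genes spanned between 0.48 (Txnrd2) and 0.77 (Sephs2). With the groups ordered by their means, neighbours stood further apart than the larger of their SDs in 1 of 11 pairs for Selenbp1, in 1 of 11 for Gpx1, and in none of 11 for the other 6 genes, so the order within each run of neighbours is not resolved. For Gpx1 the 4 LRD-5001 means (12.79 to 12.83) came first, followed by the undisturbed and arsenite-fed AIN-76A groups and the injected groups in mixed order, with dexamethasone last (12.13 ± 0.14, SD, n = 5).

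Among 1666 genes whose 12 group means also span at least 1 log2 unit, those most like Selenbp1 were Slc47a1, an organic cation exporter (Pearson r = 0.97), and Lipt1 (r = 0.963), those most like Dio1 were Nudt7 (r = 0.943) and Ppara (r = 0.938), and those most like Gpx3 were Slpi, a protease inhibitor (r = 0.934), and 2010003K11Rik (r = 0.931). These correlations describe 12 group means that share diets, arrays and depth of signal, and carry no test.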

How the data were processed

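Liver RNA was hybridised to 1 array per sample. The deposited values are log2 expression values per probe set made by the authors with RMA, per the submitters' processing notes, with the version not given in the sources used here. They were used unchanged. The 64 control probe sets among 45101 were dropped, and 34945 carry a single gene symbol. Groups came from the sample titles. The 39 arrays of the 5-week experiment and the 20 injection arrays were fitted separately with limma 3.58.1 in R 4.3.3 (lmFit, eBayes), without a low-value filter, and p-values were adjusted by Benjamini-Hochberg over 45037 probe sets per comparison. The titles call samples biological replicates, and p-values set a difference against the spread between them within groups, over all arrays of the experiment. Named genes are the members, up to 4 genes per pathway list with the smallest p among those that passed (diet averaged or in controls, injections against saline), and the 2 genes most like each member whose group means span at least 1 log2 unit. Cell markers that passed are named after their values were seen. The members and lists were chosen with earlier results of these data known. Upstream windows came from RefSeq (GRCm38.p6). Precision is limited by how many arrays there are. The scripts were tested on simulated data. Alternatives were other array sets in the fit, other variance models, a filter at a mean of 4, quantile normalization, 1 probe set per gene, other probe sets, blocks, and arrays left out. Replicate letters were not used as pairs in the main fits. Same-letter correlations of deviations averaged -0.028 over 111 pairs (from -0.56 to 0.72) and 0.023 over 25 pairs (from -0.42 to 0.33). Those of different letters averaged 0.013 and -0.003. Means with such ranges cannot exclude that some samples were paired.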

Additional observations from a re-analysis of the deposited data

Results flagged for a closer look

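Of 96 combinations of gene and group, 5 had a sample far from the others by Dixon's ratio, where chance gives about 1 in 20 groups. Gpx4 at 100 ppb in water on AIN-76A was highest in replicate C, at a log2 value of 10.31 against 9.86 for the next array. Gpx4 after dexamethasone with arsenite was highest in replicate E (10.44, next 9.97). Selenbp1 after saline was lowest in replicate F (10.17, next 10.85). Sephs2 in AIN-76A controls was highest in replicate C (12.07, next 11.31). Txnrd2 after dexamethasone with arsenite was lowest in replicate A (6.26, next 6.80).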

How the results depend on the processing

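The averaged diet differences of Selenbp1 and Gpx1 kept their direction and call in all 39 fits without 1 array and in every other setting run (0.74 to 1.01 and 0.29 to 0.37). Signs turned without AIN-76A 100 ppb replicates B and C, for Gpx3 (-0.20) and Selenbp1 (0.26) against control, and for Txnrd1 at 100 against 10 ppb (-0.036) on another probe set. Leaving out 1 array at a time, the averaged diet comparison called 2 to 4 genes, diet within exposures 2 to 4, and oral arsenite on AIN-76A 0 to 1. With only the groups compared in the fit, diet within exposures called 1 gene and dexamethasone 1. Without those replicates B and C, diet in controls called 1. Without replicates A and E of the group given both agents, dexamethasone, both, and dexamethasone on top of arsenite called 1 gene each, the latter also 1 with all 59 arrays in 1 fit (Dio1). With the replicate block, the averaged diet comparison called 3 genes (Gpx4 lost, adjusted p = 0.065) and diet within exposures 2 (Gpx3 at 100 ppb lost, adjusted p = 0.0662).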

Other observations

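Saline-injected mice and the AIN-76A controls of the 5-week experiment ate the same diet but differ in handling, age and experiment, so their values stand side by side with no test. Dio1 had a mean log2 value of 8.75 ± 0.71 (SD, n = 5) after saline and 9.53 ± 0.36 (SD, n = 5) in AIN-76A controls. For Gpx1 these means were 12.35 ± 0.10 and 12.54 ± 0.06, and for Gpx3 5.29 ± 0.49 and 4.68 ± 0.47.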
